A study of Mus musculus with 54 samples.

Results

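This section describes 5015 sites in mouse liver at which a peak of the transcription factor TFE3 was called in livers lacking folliculin (Flcn) on both diets of the ChIP-seq experiments, and in no liver that kept Flcn. They were chosen by the peak calls alone, from the 26445 peaks of the list for Flcn-deleted liver on normal chow. A peak was taken when it shared at least 1 base with a peak of each of the other 2 lists from Flcn-deleted liver, both on FPC diet, and with no peak of the 3 Control lists. The 5015 sites were 19% of their own list, which was itself part of 121380 peaks in 6 TFE3 lists. "Gained" below refers to these calls, since a pooled list gives no replicate and no level at a site where no peak was called.

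All mice of the LiFKO and Control groups carried floxed Flcn alleles (Flcnlox/lox) and received an AAV8 virus. The hepatocyte-directed TBG promoter drove Cre in LiFKO mice and GFP in Control mice, so other liver cells kept Flcn. For ChIP on normal chow the dose was 1.5e11 genome copies and mice were fed ad lib. For ChIP on FPC diet, given for 9 days, the dose was 2.5e11 genome copies, or 1.5e11 with 1.0e11 genome copies of a second virus for HA-tagged nuclear SREBP-1c under an ApoE/AAT promoter (the groups marked +1c). The labels give 4 TFE3 ChIP libraries a group on chow and 3 on FPC diet, but each list is 1 set of peaks. TFE3 ChIP from liver of Tfe3-/Y mice, a whole-body deletion, served as background. On chow there were 2 such libraries, with the GFP virus at 1.5e11 genome copies. On FPC diet there was 1, with the Cre virus at 2.5e11 genome copies. Expression came from other mice, fed the diet for 17 to 18.5 weeks and fasted 4 to 6 hours, with 3 RNA-seq libraries a group. The RNA groups were Control and LiFKO on chow, and Control, LiFKO and DKO on AMLN diet, all at 1.5e11 genome copies. DKO mice were Flcnlox/lox and Tfe3-/Y and received Cre; they come from a line of their own, so line and genotype cannot be told apart, and no DKO group on chow was analysed here. The labels do not name the individual mice behind the libraries. If libraries of a group shared tissue, the p-values measure technical spread.

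TFE3 belongs to the MiT family of basic helix-loop-helix leucine zipper factors, which bind E-boxes with the core CACGTG and drive genes of lysosomes, autophagy and mitochondrial metabolism. Folliculin with its partners FNIP1 and FNIP2 acts on the Rag GTPases RagC and RagD at the lysosome. This lets mTORC1 phosphorylate TFE3 and keep it in the cytoplasm, and without folliculin TFE3 enters the nucleus. SREBP-1c, which drives lipogenic genes in liver, is another bHLH factor that can bind E-boxes besides sterol response elements.

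The following RefSeq promoters (GRCm38.p6, 120 bases each, 5′ to 3′ on the gene's strand, CACGTG in capitals) belong to genes that had a gained site within 1 kb of the start and were called on chow. Zfyve26, Pdk2 and C1rl were chosen after their values were seen because an E-box lay in their promoters. Zfyve26 and Pdk2 rose with LiFKO on chow, but C1rl fell. Its log2 fold change was -0.43 ± 0.1 (SE) on chow (limma adjusted p = 0.00457) and -0.43 ± 0.1 on AMLN (adjusted p = 0.00611). In DKO against LiFKO C1rl was at 0.4 ± 0.1 (adjusted p = 0.0156). Ndufv1 and Ogdhl were named by the gene rule and hold an E-box, and Atf3 and C3 were named by it and hold none. The 120-base windows taken for Cyp2c70, Dpy19l3, Tceal8 and Hamp2, also named by it, hold none either and are not printed. Tceal8 does have a CACGTG outside that window, beginning 17 bases after its RefSeq start. The peak centre there was at -11 bases from the mm9 start. The sequences shown thus hold E-boxes more often than the named genes do. Of 42 named genes, 34 had no CACGTG from 250 bases before the RefSeq start to 50 after. The windows are chr12:79296345-79296464, chr11:95041438-95041557, chr19:4012865-4012984, chr1:191183464-191183583 and chr17:57228195-57228314 on the minus strand, and chr6:124492907-124493026 and chr14:32321900-32322019 on the plus strand.
Zfyve26: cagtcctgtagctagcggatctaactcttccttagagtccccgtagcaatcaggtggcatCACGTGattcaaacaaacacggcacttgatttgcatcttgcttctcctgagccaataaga
Pdk2: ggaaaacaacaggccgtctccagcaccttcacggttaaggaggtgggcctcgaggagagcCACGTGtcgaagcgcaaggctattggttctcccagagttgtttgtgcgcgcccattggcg
Ndufv1: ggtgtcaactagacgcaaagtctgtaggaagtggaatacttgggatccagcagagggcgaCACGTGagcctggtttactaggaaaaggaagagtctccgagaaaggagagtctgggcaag
C1rl: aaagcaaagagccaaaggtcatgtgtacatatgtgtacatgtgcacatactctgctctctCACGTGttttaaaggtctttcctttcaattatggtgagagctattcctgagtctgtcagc
Ogdhl: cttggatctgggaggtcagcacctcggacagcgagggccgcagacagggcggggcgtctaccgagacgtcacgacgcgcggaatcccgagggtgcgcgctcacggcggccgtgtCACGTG
Atf3: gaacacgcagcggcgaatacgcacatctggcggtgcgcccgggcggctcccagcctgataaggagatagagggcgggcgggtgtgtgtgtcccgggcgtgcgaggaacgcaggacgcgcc
C3: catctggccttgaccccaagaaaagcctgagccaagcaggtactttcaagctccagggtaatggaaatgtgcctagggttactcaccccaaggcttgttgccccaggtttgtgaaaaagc

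The E-box began 122 bases before the RefSeq start of Zfyve26, 126 before that of Pdk2, 169 before that of Ndufv1, 146 before that of C1rl and 5 before that of Ogdhl. The peak centre lay 3 bases upstream of the gene's start in the deposited mm9 annotation for Zfyve26, 161 upstream for Pdk2, 17 upstream for Ndufv1, 161 upstream for C1rl and 40 downstream for Ogdhl. Measured from these starts, the motif and the centre were 116, 38, 149, 18 and 42 bases apart, in that order. The peak was 187 bases wide, so a motif more than 94 bases from the centre, as for Zfyve26 and Ndufv1, lay outside it if the starts of the 2 annotations agree. Sequence under the peaks themselves was not analysed here, since the peaks are on mm9.

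The gained sites were weaker peaks than the sites called in all 6 TFE3 lists. Their median HOMER score in the chow LiFKO list, the authors' peak score, was 15.8, with the middle 50% of sites between 11.4 and 21.4 and a range of 2.58 to 82.8. For comparison, 2252 peaks of the same list were called in all 6 TFE3 lists, with a median of 36.6, and 5737 were called in no other TFE3 list, with a median of 12.8. The whole list had a median of 18.5, and 36.4% of the gained sites were above it, against 88.6% of the sites in all 6 lists. The scores of the gained sites in the FPC LiFKO and FPC LiFKO+1c lists had medians of 11.6 and 14.4, at the 48.4th and 52.7th percentile of those lists. Across the 5015 sites the rank correlation of score was 0.58 between chow and FPC LiFKO, 0.61 between chow and FPC LiFKO+1c and 0.86 between the FPC lists. These are descriptions over sites that share the libraries of a list. The scores took part in the calls that chose the sites.

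The rule itself required overlap with the FPC peaks, so the overlaps only describe the sites it kept. The peaks shared a median of 131 bases with the FPC LiFKO peak and 132 with the FPC LiFKO+1c peak, and the centres were a median of 46 and 44 bases apart. At the edge of the rule, 66 and 54 sites shared at most 10 bases with those peaks. On the other side, 299 of the 5015 sites had the centre of a Control peak within 1 kb without touching it, and 62 had it within 250 bases, with a median score of 21.8. Just outside the rule, 26 peaks shared with the LiFKO lists of the FPC diet touched a Control peak by 1 to 10 bases, with a median score of 18.2. The nearest Control peak was a median of 17.3 kb away.

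The count depends on the FPC lists. In 3 of the 4 FPC TFE3 lists the file header names 1 of the 3 pooled ChIP libraries as an input, and a library named TFE3 as the input used against them. Over the 96 peaks of the authors' deposited table that compares LiFKO+1c with LiFKO, the library named as LiFKO input had a median log2 tag value of 3.62, and the other 2 LiFKO libraries had 3.55 and 3.61. These peaks were selected as low in those 3 libraries, so the values do not tell whether the library is an input. The effect of the names on the lists was not tested. With only the lists whose headers name no input in the pool (chow LiFKO, FPC LiFKO+1c and chow Control), the rule took 10049 sites.

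**Figure D1:**
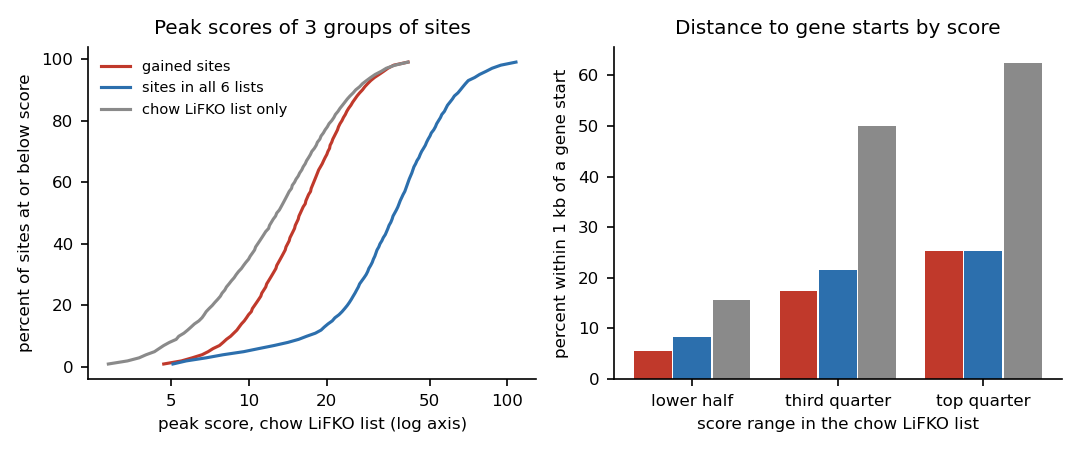
Left, the percent of sites (y axis) at or below each peak score in the chow LiFKO list (x axis, log scale) for the 5015 gained sites, the 2252 sites in all 6 lists and the 5737 sites of the chow LiFKO list alone; right, the percent of sites within 1 kb of a gene start in 3 ranges of score. The gained sites run to the left of the sites in all 6 lists, and in the highest range of scores both of these groups are at 25.4%.

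Most gained sites lay away from gene starts. Of the 4877 sites on chromosomes with start positions, 519 (10.6%, exact 95% interval 9.79 to 11.5) had their centre within 1 kb of the start of a measured gene, 607 (12.4%) lay at 1 to 10 kb, 1586 (32.5%) at 10 to 50 kb and 2165 (44.4%) farther. Over the whole chow LiFKO list 20.6% lay within 1 kb and 37.7% farther than 50 kb. Of the sites in all 6 lists 22.8% lay within 1 kb, and of those in the chow LiFKO list alone 26%. The intervals cover counting error over sites only. Gene bodies held 50.1% of the gained sites and 50.2% of the sites in all 6 lists. The shares moved with the peak score. Among peaks with scores above 27.5, the top 25% of the list, 25.4% of the gained sites and 25.4% of the sites in all 6 lists lay within 1 kb of a start, but that range holds 495 of the gained sites and 1614 of the others. Of the sites in the chow LiFKO list alone 62.5% in that range lay within 1 kb. At scores up to the list's median the shares were 5.46% for gained sites, 8.4% for sites in all 6 lists and 15.6% for the chow LiFKO list alone. The start positions cover 9962 of the 13815 measured genes, so the shares within 1 kb miss the starts of the other genes.

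The strongest gained sites were of mixed position. The highest score, 82.8, belonged to chr15:73356722-73356908 (mm9), within the gene body of Dennd3, which encodes an activator of a Rab GTPase of autophagy. It ranked 124th of the list, with scores of 57.7 and 66.1 in the FPC LiFKO and FPC LiFKO+1c lists and no Control peak within 14.0 kb. The next, chr9:93911915-93912101 with 64.0, was 506 kb from the nearest measured gene and had a Control peak centre 0.302 kb away. It was also the strongest site over 50 kb from any measured gene, of 895 such sites. These were 17.8% of the gained sites, against 10.7% of the sites in all 6 lists and 14.4% of the whole list. At 2 of the 10 strongest the centre lay almost on a start. One was chr12:80397179-80397365, 3 bases from the start of Zfyve26, which encodes spastizin, a protein of lysosome reformation in autophagy, with 59.4 on chow and 59.6 and 70.3 on FPC diet. The other was chr10:84085094-84085280, 5 bases from the start of Polr3b, a subunit of RNA polymerase III, with 53.9. The remaining 6 lay on chromosome 18 (score 60.2), 0.289 kb from the start of Tmem131 (59.4), 69.9 kb from Zcchc6 (58.9), 0.159 kb from 9430023L20Rik (57.5), 3.23 kb from Ccdc73 (56.6) and inside Rnaseh2b (52.4). Dennd3 was higher in LiFKO on chow by 1.95 ± 0.28 on the log2 scale (SE, n = 3 libraries a group, limma adjusted p = 0.000147) and lower in DKO than in LiFKO, with a log2 fold change of -1.53 ± 0.28 (adjusted p = 0.00265). Of the genes with a peak near the start in this group, Zfyve26 rose with LiFKO on chow by 0.81 ± 0.11 on the log2 scale (limma adjusted p = 8.94e-05) and Tmem131 by 0.26 ± 0.09 (adjusted p = 0.0417, or 0.0692 with the replicate pairs of each diet as a block). Polr3b differed by 0.05 ± 0.09 (adjusted p = 0.705), and 9430023L20Rik fell by 0.47 on the log2 scale (SE 0.1, adjusted p = 0.00323).

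An E-box was present in the promoters of a smaller share of genes at gained sites than of genes at sites held in all 6 lists, and the exact 95% intervals did not overlap. A gene was taken to be at a site when its start lay within 1 kb of the peak centre, and 558 genes were. All 558 matched the RefSeq promoter table, as 557 of its entries. Over the 300 bases of the RefSeq promoter (250 before the start and 50 after), CACGTG, which reads the same on either strand, was present for 79 of 557 (14.2%, exact 95% interval 11.4 to 17.4). It was present for 30.6% (26.8 to 34.7) of 542 genes at sites in all 6 lists, 9.55% of 1539 at sites of the chow LiFKO list alone, and 7.93% of 2888 genes with a start and no TFE3 peak of any list nearby. Over 9910 promoters of all measured genes with a start the share was 11.8% (11.2 to 12.5), which the interval for gained sites includes. Over all 27025 genes of the promoter table it was 8.09%. The longer form TCACGTGA, which contains CACGTG, was found for 3.77% of the genes at gained sites and 8.86% at sites in all 6 lists. It was found for 2.22% of measured genes with a start and 1.12% of all promoters. The related 8-mer TCATGTGA on either strand was found for 0.539%, 3.14%, 0.989% and 1.15%, in that order. At peak scores above 27.5 CACGTG was present for 15.2% of 138 genes at gained sites and 32.0% of 438 at sites in all 6 lists. Where the peak centre fell within the promoter window, an E-box lay within 94 bases of it for 21 of 35 gained sites with an E-box, and for 59 of 77 sites in all 6 lists.

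HA-nSREBP-1c peaks overlapped 218 of the 5015 gained sites (4.35%, exact 95% interval 3.8 to 4.95), near the 4.81% (4.56 to 5.08) of the whole chow LiFKO list. The share was 12.3% for the sites in all 6 lists and 0.715% for those in the chow LiFKO list alone. The HA list of LiFKO+1c liver touched 144 gained sites and that of Control+1c liver 134, with 60 in both. These were 2.87% and 2.67% of the gained sites, against 2.87% and 3.4% of the whole list. At scores above 27.5 the share was 6.46% for gained sites and 14.0% for sites in all 6 lists. The header of the LiFKO+1c HA list names 1 of its 3 pooled libraries as a TFE3 library, and its effect was not tested. Of the sites with both HA peaks the strongest, chr9:62683821-62684007 (score 34.4), lay 2.68 kb upstream of Cln6, which encodes a protein needed for the transport of lysosomal enzymes. Cln6 was chosen after its values were seen. It rose with LiFKO by 3.25 ± 0.22 on the log2 scale on chow (limma adjusted p = 2.19e-07) and by 3.39 ± 0.22 on AMLN, and fell by 2.26 (SE 0.22) in the libraries labelled DKO against LiFKO. The next by score, 33.8, lay in Hibadh, an enzyme of valine breakdown, which differed by 0.15 ± 0.1 on chow (adjusted p = 0.286). Insr and Scd1, near weaker sites with both HA peaks, were also chosen after their values were seen. One site lay within Insr, the insulin receptor gene (score 26.1), whose expression differed by less than the test could call on chow (log2 -0.18 ± 0.08, adjusted p = 0.128). Another, 51.2 kb from Scd1, the main stearoyl-CoA desaturase of liver, had a score of 27.8. Scd1 differed by 0.27 ± 0.3 on chow (adjusted p = 0.558) and by -1.7 ± 0.3 on AMLN (adjusted p = 0.000973).

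**Figure D2:**
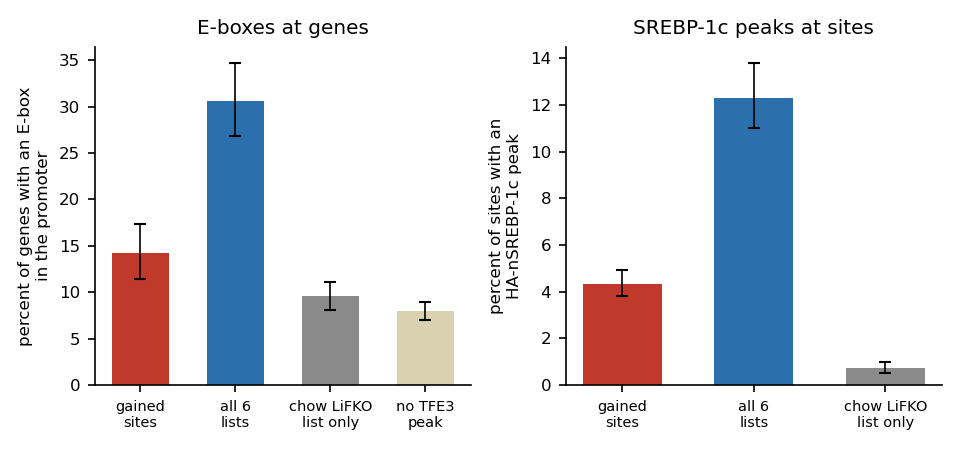
Left, the percent of genes whose RefSeq promoter holds CACGTG for genes with a start within 1 kb of a gained site, of a site in all 6 lists, of a site of the chow LiFKO list alone, and for genes with no TFE3 peak nearby; right, the percent of sites overlapping an HA-nSREBP-1c peak. Bars show shares and lines exact 95% binomial intervals, and the gained sites stand between the sites in all 6 lists and the other groups, at 14.2% and 4.35%. Not drawn are the E-box share of all measured genes with a start, 11.8%, and the HA share of the whole chow LiFKO list, 4.81%.

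Of the authors' deposited table of 96 TFE3 peaks that were higher in LiFKO+1c than in LiFKO liver, 34 overlapped the 26445 peaks of the chow LiFKO list. Of these, 5 were among the 5015 gained sites and 1 among the 2252 sites in all 6 lists. The largest change at a gained site was at chr9:43753034-43753198, far from the start of Thy1, with a log2 fold change of 2.79 and an adjusted p of 4.92e-06 in the authors' deposited table. The other 4 had 1.73 to 2.1 there, and 2 of the 5 were annotated as promoters, of Pwwp2b and 1700019D03Rik. The remaining gained sites were not in that table.

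Expression was measured in other mice and took no part in choosing the sites. Flcn fell with LiFKO by 1.03 (SE 0.17) on the log2 scale on chow and was lower in every LiFKO library than in every Control library of the same diet. It was lower still in DKO, at 9.12, 9.45 and 9.91 against 10.25, 10.56 and 10.43 in LiFKO on AMLN. That log2 fold change was -0.92 ± 0.17 (limma adjusted p = 0.00242), so DKO and LiFKO libraries did not have equal Flcn levels. Tfe3 was at 9.88 to 10.2 in the libraries labelled DKO and 9.92 to 10.07 in LiFKO on AMLN, and a whole-gene level cannot check a deletion whose extent is not given in the sources used here. Hepatocyte markers averaged 17.9 to 18.04 in chow Control and 17.76 to 18.13 in chow LiFKO libraries, and of the 11 measured 3 rose and 2 fell on chow. Of the markers of other cells, 3 of 6 erythroid genes fell on chow (list average 11.87 to 12.96 in Control and 11.1 to 11.66 in LiFKO), 1 of 16 macrophage and 2 of 11 endothelial genes rose, and none of the stellate, cholangiocyte or lymphocyte genes passed the test. Along the second principal component AMLN Control replicate 3 stood apart, at -11.4 beside -37 and -31.9 for the other AMLN Control libraries, and DKO replicate 3 at -2.1 beside -30 and -18.2. No marker gene of these lists stood at a gained site, and the part of these changes in the results was not tested. In bulk liver, fewer cells of a type and less RNA per cell cannot be told apart.

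Genes at gained sites rose and fell with loss of Flcn about as often as all genes. On chow 78 of the 558 rose (14.0%) and 81 fell (14.5%) in LiFKO against Control, where 12.5% of all 13815 genes rose and 13.2% fell. The median log2 fold change was -0.04, against -0.05 for all genes. Of the 9962 genes with a start position 12.7% rose and 14.2% fell. Many of these had a TFE3 peak of some list within 1 kb. Of the 2906 with none, 9.57% rose (exact 95% interval 8.52 to 10.7) and 13.3% fell. The share that rose at gained sites was above that, with an interval of 11.2 to 17.1, and the difference was not tested. At sites in all 6 lists 136 of 542 genes rose (25.1%) and 55 fell (10.1%), with a median of 0.08, and at sites of the chow LiFKO list alone 12.1% of 1540 rose and 15.9% fell. Among genes at gained sites 14.2% of 386 rose where the site's score was above the list's median and 13.4% of 172 where it was not. At scores above 27.5, 15.2% of 138 genes at gained sites rose, against 27.2% of 438 genes at sites in all 6 lists. With a promoter E-box 11 of 79 rose (13.9%) and 6 fell (7.59%), and without it 67 of 479 rose (14.0%) and 75 fell (15.7%). On AMLN 14 of the 79 genes with an E-box (17.7%) and 48 of the 479 without it rose, and in DKO against LiFKO 8.86% and 4.59% fell, differences that were not tested. The 82 genes that also had a Control peak within 1 kb of the start, beside the gained site, rose in 18.3% and fell in 8.54% of cases. The other 476 rose in 13.2% and fell in 15.5%.

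**Figure D3:**
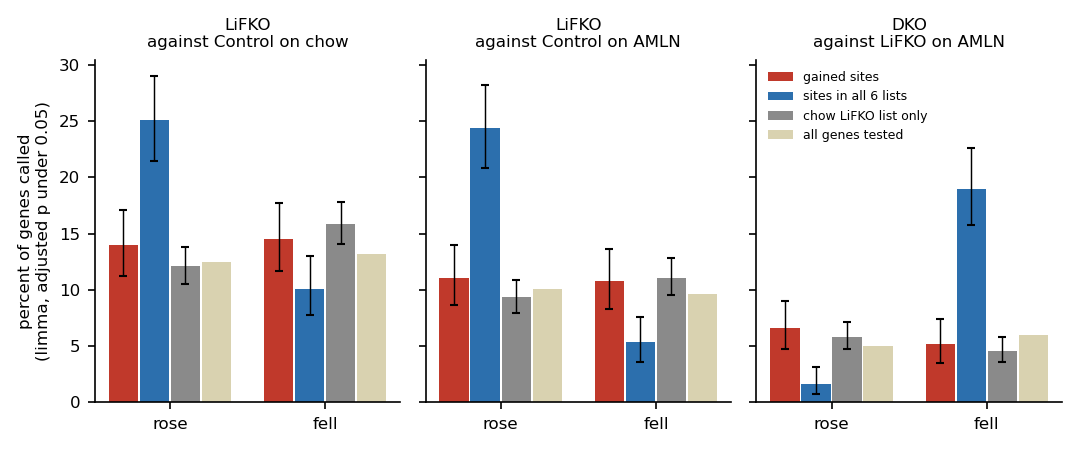
Percent of genes called as risen or fallen (y axis; limma, adjusted p under 0.05) in 3 comparisons, for genes with a start within 1 kb of a gained site (558), a site in all 6 lists (542) or a site of the chow LiFKO list alone (1540), and for all 13815 genes; lines are exact 95% binomial intervals over genes. Bars of the gained sites stand near those of all genes in each comparison, and those of the sites in all 6 lists are higher for genes that rose with LiFKO and fell in DKO.

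The largest rise on chow at a gained site was that of Cd63, which encodes a tetraspanin of late endosomes and lysosomes. Its site, chr10:128346674-128346860, lies in the gene body 792 bases after the start. The score was 23.6 in the chow LiFKO list and 58.6 in the FPC LiFKO list, and scores of different lists are not compared here. Cd63 had log2 levels of 7.49, 7.64 and 7.64 in chow Control libraries and 12.89, 13.13 and 12.52 in chow LiFKO. On AMLN it had 9.52, 9.55 and 9.3 in Control, 12.66, 12.84 and 12.98 in LiFKO, and 10.19, 8.63 and 8.59 in DKO. LiFKO libraries were above all others on either diet, and DKO libraries lay around the AMLN Control ones. The rise was 5.26 ± 0.31 on chow (limma adjusted p = 6.61e-08) and 3.37 ± 0.31 on AMLN (adjusted p = 5.83e-06). In DKO Cd63 fell by 3.69 (SE 0.31, adjusted p = 5.99e-06). A processed copy, Cd63-ps, was measured with a like pattern (log2 5.02 ± 0.35 on chow), so reads may be split between them.

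Ogdhl, an isoform of the E1 subunit of oxoglutarate dehydrogenase, has its site chr14:33135152-33135338 at the start, with a score of 13.3. It was at 5.03, 4.14 and 3.73 in chow Control and 9.78, 9.17 and 9.25 in chow LiFKO libraries, and on AMLN at 3.67, 2.36 and 3.86 in Control, 8.13, 8.88 and 7.3 in LiFKO and 2.32, 2.16 and 2.36 in DKO. No LiFKO library overlapped any other group of its diet. The log2 fold change was 5.1 ± 0.5 on chow (limma adjusted p = 5.72e-06) and 4.81 ± 0.5 on AMLN, and in DKO it fell by 5.82 (SE 0.5, adjusted p = 6.66e-06). The E-box of its promoter is the one printed above at the start.

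Another 8 genes complete the 10 with the largest rises on chow. Wfdc2, a secreted protease inhibitor, rose by 4.46 ± 0.36 (adjusted p = 9.32e-07), and Plin4, a coat protein of lipid droplets, by 3.73 ± 0.46 (adjusted p = 4.32e-05). Plin4 was at 9.49, 11.06 and 10.31 in chow Control and 14.03, 14.09 and 13.94 in chow LiFKO. The centre of its site was at -176 bases from the start, with a score of 20.3, and a Control peak lay within 1 kb of the same start. The X-linked neighbours Tceal8 and Wbp5, of the same family of small proteins, rose by 3.08 ± 0.16 (adjusted p = 2.31e-08) and 2.01 ± 0.14 (adjusted p = 2.58e-07). Anxa5, the calcium-dependent phospholipid binder annexin A5, rose by 2.89 ± 0.48 with a broad Control group of 9.62 to 11.83 (adjusted p = 0.000499). Hamp2, a paralog of the iron hormone hepcidin, rose by 2.8 ± 0.66 (adjusted p = 0.00588), and reads may be shared with Hamp. Mfge8, a secreted bridge for the uptake of apoptotic cells, rose by 1.9 ± 0.15 (adjusted p = 9.42e-07) and Pyroxd2, a mitochondrial oxidoreductase, by 1.84 ± 0.16 (adjusted p = 1.98e-06). Their sites had scores of 8.42 (Wbp5) to 30.3 (Pyroxd2), against the median of 15.8 for all gained sites.

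The 6 genes that fell most on chow were Hsd3b5, Mup7, Dpy19l3, Cyp2c70, C3 and Pdilt. Hsd3b5, a steroid-metabolising enzyme of male mouse liver, was at 13.07, 12.41 and 12.27 in Control and 8.26, 5.04 and 6.27 in LiFKO. It fell by 6.06 on the log2 scale (SE 1.45, limma adjusted p = 0.00658). Mup7, a major urinary protein, fell by 3.1 (SE 0.96, adjusted p = 0.0284), a call that was lost on leaving out Control replicate 1 or 3 or LiFKO replicate 2 or 3 (adjusted p 0.0802 to 0.111). Both belong to families of near-identical genes, and the authors' counting could split their reads. Dpy19l3, a C-mannosyltransferase, fell by 2.66 on the log2 scale (SE 0.38). Cyp2c70, which makes muricholic acids, fell by 1.83 (SE 0.39), and Pdilt, a protein disulphide isomerase relative, fell by 1.76 (SE 0.26). C3, the central complement component, was at 20.1, 20.1 and 19.37 in Control and 18.28, 17.87 and 17.99 in LiFKO, a fall of 1.81 (SE 0.24, adjusted p = 9.46e-05). Its site lay 118 bases upstream with a score of 26.8 in the window printed above, where CACGTG was not found. In all, 24 of the 78 genes that rose and 14 of the 81 that fell changed by at least 1 on the log2 scale. The same counts over all called genes were not taken, so these are not set against a background. The 5th and 95th percentiles of the chow log2 fold change were -0.75 and 0.94 for the 558 genes at gained sites. For all 13815 genes they were -0.83 and 0.93.

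**Figure D4:**
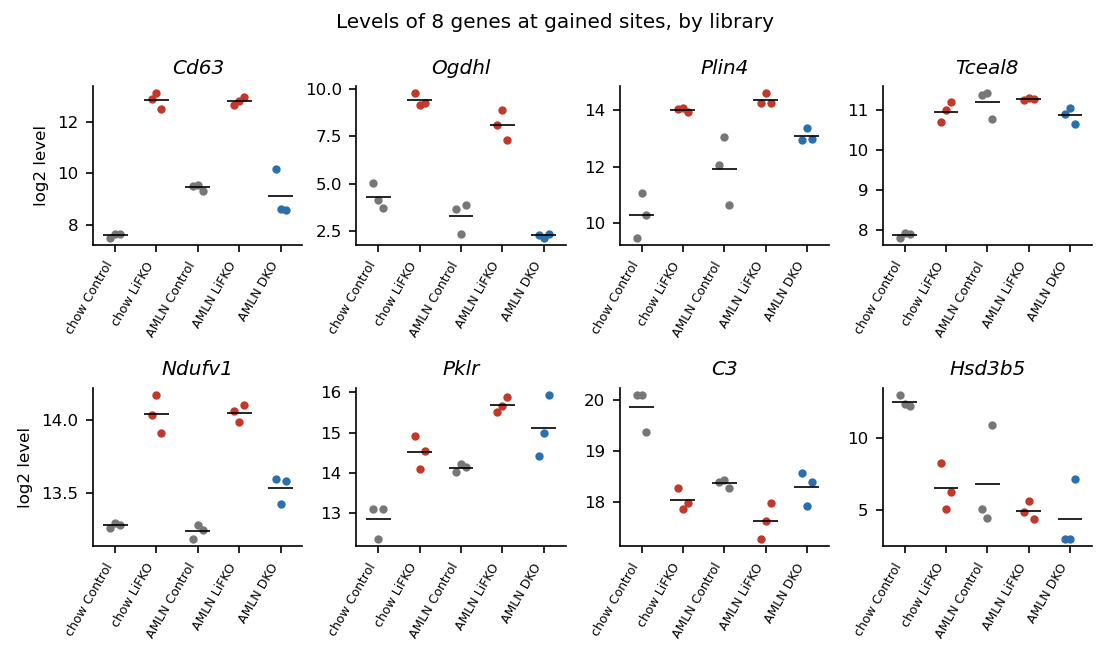
Deposited log2 levels (y axis) of 8 genes at gained sites in each library of the 5 expression groups, with a horizontal line at the mean of each group of 3 libraries. Cd63, Ogdhl, Plin4, Ndufv1 and Pklr are higher in LiFKO than in Control on both diets, Tceal8 differs on chow (log2 3.08) and by 0.08 on AMLN, and C3 and Hsd3b5 are lower in LiFKO on chow.

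On AMLN diet 62 of the 558 genes rose (11.1%, against 10.1% of all genes) and 60 fell (10.8%, against 9.63%). At sites in all 6 lists 24.4% of the genes rose and 5.35% fell. Of the 2906 genes with a start and no TFE3 peak within 1 kb, 6.85% rose and 10.1% fell. Of the 78 genes that rose on chow, 40 also rose on AMLN (51.3%, against 53.8% of all genes that rose on chow) and none fell. Of the 81 that fell on chow, 30 also fell on AMLN (37.0%, against 39.6%) and none rose. Wfdc2 rose by 2.82 ± 0.36, Plin4 by 2.46 ± 0.46, and Pklr, the liver pyruvate kinase gene, by 1.55 ± 0.31 after 1.66 ± 0.31 on chow. The LiFKO effect differed between the diets, by limma's interaction test, for 9 of the 558 genes (1.61%, against 1.04% of all genes). Tceal8 was the clearest, at 7.8, 7.92 and 7.9 in Control and 10.7, 10.99 and 11.19 in LiFKO on chow, but at 11.38, 11.42 and 10.78 in Control and 11.24, 11.31 and 11.28 in LiFKO on AMLN. The Control libraries on AMLN were thus already at the level of LiFKO. This count of 9 rested on single libraries, going to 24 without AMLN Control replicate 3 and to between 2 and 5 without AMLN Control replicate 1 or 2, AMLN LiFKO replicate 1 or 3, chow Control replicate 1 or 2, or any chow LiFKO library.

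In the libraries labelled DKO the share of genes at gained sites that changed was near that of all genes. In DKO against LiFKO on AMLN 37 of the 558 genes rose (6.63%, against 5.05% of all genes) and 29 fell (5.2%, against 5.97%). At sites in all 6 lists 1.66% of the genes rose and 19% fell. Of the 2906 genes with a start and no TFE3 peak within 1 kb, 5.13% rose and 3.89% fell. The 37 became 12 to 24 on leaving out any 1 of the 6 libraries, and the 29 became 19 without DKO replicate 2. The DKO comparison shares no library with that on chow. Of the 78 genes that rose on chow, 21 fell in DKO against LiFKO (26.9%, against 35.8% of all genes that rose on chow) and none rose. Of the 81 that fell on chow, 19 rose in DKO (23.5%, against 23.7%) and none fell. Between DKO and Control on AMLN 2 of the 558 genes rose (0.358%) and none fell, where 0.449% of all genes rose and 0.203% fell.

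The largest changes in DKO are given for genes that were called with LiFKO on AMLN. The comparisons of DKO with LiFKO and of LiFKO with Control on AMLN share the 3 AMLN LiFKO libraries, so opposite signs in them, here and for every gene named, are not independent. Dnaic1, an axonemal dynein chain, fell by 4.3 (SE 0.68, limma adjusted p = 0.000925), from 6.5, 5.83 and 6.3 in LiFKO to 1.21, 2.16 and 2.36, beside Control values of 1.16, 1.26 and 3.86. Its site, 152 bases upstream, had a score of 23.5 on chow and 37.3 and 48.0 in the FPC LiFKO and FPC LiFKO+1c lists. On chow Dnaic1 did not pass the test (1.62 ± 0.68, adjusted p = 0.0941). With Ogdhl and Cd63 it made up the 3 that fell most among genes called with LiFKO on AMLN. In the other direction Mogat1, a monoacylglycerol acyltransferase of triglyceride synthesis, rose by 3.02 ± 0.61 in DKO (adjusted p = 0.00497) where with LiFKO on AMLN it fell by 3.52 (SE 0.61). Its site also overlapped an HA peak. Unc5b, a netrin receptor, rose by 1.24 ± 0.2 and Gstm4, a glutathione transferase with close paralogs, by 1.14 ± 0.29 (adjusted p = 0.0218), a call lost without DKO replicate 1 or 2 or LiFKO replicate 1 or 2 (adjusted p 0.0614 to 0.0786). On chow Gstm4 was at -0.69 ± 0.29 (adjusted p = 0.1, or 0.0117 with the replicate pairs of each diet as a block). Zfyve26 fell in DKO by 0.71 (SE 0.11, adjusted p = 0.000732) after a rise of 0.73 ± 0.11 on AMLN.

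**Figure D5:**
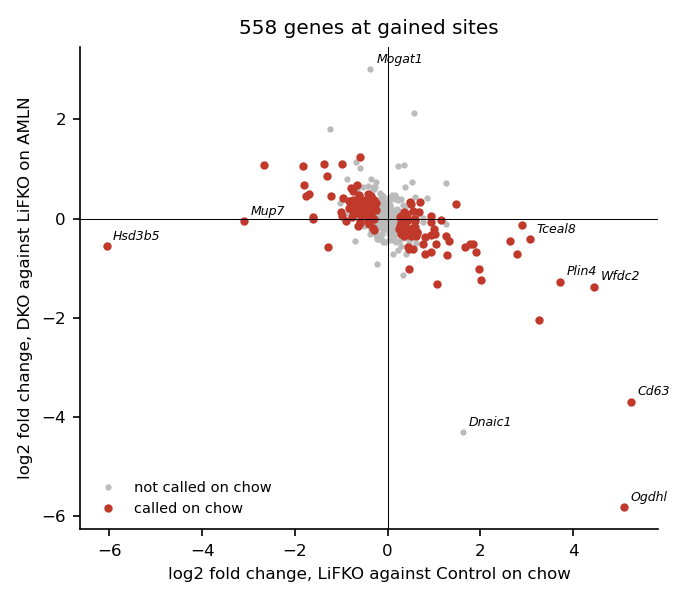
Each point is 1 of the 558 genes at gained sites, with the log2 fold change of LiFKO against Control on chow (x axis) and of DKO against LiFKO on AMLN (y axis), red where the gene was called on chow. The comparisons share no library. Ogdhl and Cd63 lie far to the lower right, and most genes lie near the origin.

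The pathway counts are read against all genes, of which 558 of the 9962 with a start had a gained site within 1 kb and 542 a site in all 6 lists. Of 50 measured genes for lysosomal hydrolases and their cofactors 31 rose on chow. Of the 40 with a start, 1 had a gained site and 16 a site in all 6 lists, and 8 were the nearest gene to a gained site within 50 kb. The gene with a gained site at its start was Gusb, beta-glucuronidase, at 11.0, 10.97 and 10.76 in chow Control and 11.67, 11.76 and 11.69 in chow LiFKO, a rise of 0.8 ± 0.1 (limma adjusted p = 3.58e-05). Of 40 genes for lysosomal membrane proteins and the V-ATPase 29 rose. Of the 30 with a start, 1, Cd63, had a gained site, 10 had a site in all 6 lists and 5 were nearest to a gained site within 50 kb. Among 36 autophagy genes with a start 3 had a gained site, and Atg5, Atg2a and Calcoco1 were at -0.23, 0.18 and 0.18 on chow without passing the test. In the folliculin, Rag and mTORC1 list the genes at gained sites were Nprl3, a GATOR1 subunit, and Sesn3, a sestrin, at -0.01 ± 0.1 and 0.25 ± 0.2. No gene of the MiT-TFE or NRF2 lists stood at a gained site.

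Of 39 genes for respiration and the citric acid cycle 36 rose on chow, and gained sites stood at 2 of the 30 with a start. They were Ndufv1, a core subunit of complex I, which rose by 0.76 ± 0.08 on chow (adjusted p = 1.09e-05) and 0.82 ± 0.08 on AMLN and fell by 0.52 in DKO (SE 0.08), and Uqcrfs1, the Rieske protein of complex III, which rose by 0.53 ± 0.07 on chow. Ndufv1 was at 13.26, 13.29 and 13.28 in chow Control and 14.03, 14.17 and 13.91 in chow LiFKO, with no overlap. Pdk2, a kinase that restrains pyruvate dehydrogenase and no member of a list, rose by 0.63 ± 0.11. Tfb2m, a mitochondrial transcription factor, and Etfb, an electron carrier of fatty acid oxidation, were at 0.17 ± 0.09 and -0.1 ± 0.09 on chow without passing. On AMLN Tfb2m rose by 0.31 ± 0.09 (adjusted p = 0.0239), a call lost without Control replicate 1 or 3 or LiFKO replicate 1 or 3. Of 16 lipid droplet genes with a start 3 stood at gained sites, Plin4, Cideb and Fitm2, and Fitm2 rose by 0.5 ± 0.16 on chow (adjusted p = 0.0294), a call lost without Control replicate 1 or 3 or LiFKO replicate 2. Of 24 genes for cholesterol synthesis and uptake 11 fell on chow, and those at gained sites, Dhcr7 and Scap, were at -0.35 ± 0.25 and 0.04 ± 0.14 on chow. On AMLN Dhcr7 fell by 1.27 (SE 0.25, adjusted p = 0.00236). The stress genes were Dnajb9 (0.44 ± 0.19, adjusted p = 0.108) and Atf3, which rose by 1.48 ± 0.4 (adjusted p = 0.0145) and lost its call without Control replicate 2 or LiFKO replicate 2. Hlf, a clock output factor, was at -0.11 ± 0.13.

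Some genes of the pathway had gained sites farther off. Rragc, which encodes RagC, had 2 whose nearest start it was, the stronger being chr4:123589818-123590004 with a score of 47.6 at 4.78 kb upstream. It rose from 11.51, 11.76 and 11.52 to 12.27, 12.33 and 12.41 on chow, by 0.74 ± 0.1 (limma adjusted p = 0.000124), and fell in DKO by 0.89 (SE 0.1, adjusted p = 7.02e-05). Ppargc1a, the coactivator PGC-1alpha, had 3, all within its gene body at 13.9, 21.9 and 39.6 kb from the start, with scores of 26, 27 and 23.3. It was at 9.47, 10.18 and 9.32 in chow Control and 11.74, 12.26 and 11.64 in LiFKO, a rise of 2.23 ± 0.23 (adjusted p = 8.45e-06). Its fall in DKO of 0.97 (SE 0.23, adjusted p = 0.013) was lost without DKO replicate 1 (adjusted p = 0.0528), and DKO stayed above Control on AMLN by 1.21 ± 0.23 (adjusted p = 0.0284). Cd36, a fatty acid transporter, had 2, at 7.33 kb inside the gene with 30.3 and at 39.8 kb upstream with 12.7, and rose on chow by 2.89 ± 0.27 (adjusted p = 4.25e-06). Acaca, acetyl-CoA carboxylase 1, had 1 of score 13.1 in its body and was at 0.19 ± 0.19. Each of Rragc, Ppargc1a, Cd36 and Acaca had further TFE3 peaks of the chow LiFKO list nearest to it (3, 5, 3 and 2), so its change cannot be assigned to the gained ones. No gained site was nearest, within 50 kb, to Flcn, Fnip1, Fnip2, Rragd, Tfe3, Tfeb, Mitf, Gpnmb, Srebf1, Fasn, Acacb, Insig1, Mcoln1 or Sqstm1. All of these but Tfe3 had other peaks of the chow LiFKO list, and Flcn, Fnip2, Insig1 and Mcoln1 had at least 1 in all 6 lists.

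The share of genes that rose on chow was higher where more gained sites were near. Counting each site to its nearest start within 50 kb, 11.6% of 7744 genes with no gained site rose, 15.4% of 1798 with 1 site, 21.5% of 354 with 2 and 22.7% of 66 with 3 or more. The shares that fell were 14.2%, 13.7%, 18.1% and 13.6%. For sites in all 6 lists the shares that rose were 11.2% with none, 21.9% with 1, 27% of 122 with 2, and 13 of the 26 genes with 3 or more rose. The number of gained sites a gene collects moves with the length of the stretch it is nearest to, and the part of that in these shares was not tested. In DKO against LiFKO, 5.71% of genes with no gained site fell, 7.9% with 1, 7.63% with 2 and 7.58% with 3 or more.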

How the data were processed

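Deposited HOMER peak lists give a peak score per peak, called by the authors over input and over a background ChIP, per the file headers, on mm9. Per the submitters' processing notes chow reads went through Trimmomatic 0.32, Bowtie2 2.2.8, SAMtools 1.7 and HOMER 4.11, and FPC reads through Trimmomatic 0.36, Bowtie2 2.2.6, SAMtools 0.1.19 and HOMER 4.4. Scores were compared within a list only. The authors' deposited differential table gives each peak its log2 tag values, log2 change and p-value after adjustment. Deposited expression values are log2 levels of 13815 genes, made with STAR 2.6.0c, featureCounts and limma, per the submitters' processing notes. Their depth and offset are unknown, so precision rests on 3 libraries a group.

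Overlaps, distances and percent values were computed here with Python 3.11.15 from the deposited coordinates. The expression table gives no strand, so the strand of 9962 genes came from the RefSeq table (GRCm38.p6) by gene, and the start is the 5′ end of the gene in the deposited mm9 coordinates. Neither branch planned for start sites covered this case. Over the whole chow LiFKO list 5280 peaks lay within 1 kb of such a start and 479 within 1 kb of a gene end. The authors' differential table gives distances to starts, and for 52 of its peaks the nearest gene had a start here. For 43 of the 52 the distance was within 1 kb of the authors' value, so some starts differ by more than the window used. Chromosome 18 has no starts in that table and is left out of shares by distance to starts. Motifs were searched in RefSeq promoters, not in the peaks.

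Groups were compared with limma 3.58.1 under R 4.3.3 (group means over 15 libraries, eBayes with trend, two-sided, Benjamini-Hochberg over all 13815 genes, threshold 0.05). SE is the moderated standard error. On simulated data of the chow comparison with 13815 genes the fit recovered 69% of genes changed by 1 and 96% of those changed by 2 on the log2 scale, with 7 false calls. That simulation changed only a small part of the genes and used normal noise independent between libraries. In the data 12.5% of genes rose and 13.2% fell on chow, so these rates need not hold for the real comparison. Same-numbered chow Control and LiFKO libraries deviated together (residual correlations 0.113, 0.17 and 0.237). A fit with replicate pairs as a block within each diet is therefore given beside a chow result whose call it changes. On AMLN the same-numbered correlations were 0.16, -0.039 and 0.231 for Control with LiFKO and 0.045, 0.099 and 0.144 for Control with DKO. For LiFKO with DKO they were -0.055, -0.079 and -0.085. Of the 64 called fold changes of named genes, 1 lost its call under that fit. The sites, gene lists and rules were chosen with earlier results of these data known. Named were the 10 genes at gained sites that rose most and the 6 that fell most on chow with groups that do not overlap, the 3 that changed most in each direction in DKO, up to 4 genes of each list, a fixed set of pathway genes, and the 10 strongest sites. Genes outside this rule are named as chosen after their values were seen, or follow from another stated choice. Intervals are exact (Clopper-Pearson).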

Additional observations from a re-analysis of the deposited data

Results flagged for a closer look

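For 9 genes at gained sites, and for Cd36 with gained sites farther off, the effect of LiFKO differed between AMLN and chow by limma's interaction test (adjusted p under 0.05), and each is given as the effect on AMLN minus that on chow on the log2 scale. Tceal8 differed by -3.0 ± 0.23 (SE), with effects of 3.08 on chow and 0.08 on AMLN. Cd36 differed by -2.12 ± 0.38, Mfge8 by -1.4 ± 0.22, Pyroxd2 by -1.03 ± 0.23 and Wbp5 by -0.92 ± 0.2, and each of these rose more on chow. Arf4, a small GTPase of the Golgi, differed by -0.75 ± 0.14, with 0.55 on chow and -0.2 on AMLN, and Acsf3, a mitochondrial malonyl-CoA synthetase, by -0.65 ± 0.14. In the other direction Pex26, which anchors peroxisomal import factors, differed by 0.84 ± 0.18, with -0.74 on chow and 0.09 on AMLN. Atp5sl differed by 0.86 ± 0.18, and Cnst, an adaptor of connexin transport, by 0.97 ± 0.21, with -0.26 on chow and 0.72 on AMLN. The diets were run as groups of their own, so diet and any difference between those groups of mice cannot be told apart.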

How the results depend on the processing

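Counts of genes at gained sites kept within 1.5 times of the main value under a replicate block over all groups (78 rose and 76 fell on chow, 64 and 56 on AMLN, 31 and 27 in DKO, 9 in the interaction), a replicate block within each diet (78 and 84, 64 and 64, 35 and 31, 13), without the 25% of genes of lowest level, and with libraries centred on their median. Exceptions were 3 genes in the interaction without a mean-variance trend, and, with only the groups compared, 39 that fell on AMLN and 21 that rose in DKO. The cause was not tested. Leaving out 1 library gave 58 to 67 that rose and 60 to 71 that fell on chow, 44 to 60 and 47 to 57 on AMLN, 12 to 24 and 19 to 25 in DKO, and 2 to 24 in the interaction. A window of 5 kb took 820 genes, and 127 rose on chow (15.5%), 97 rose (11.8%) and 96 fell (11.7%) on AMLN, 51 fell in DKO (6.22%) and 14 differed between diets (1.71%). By the nearest start within 50 kb, added after seeing the data, of 2218 genes 367 rose (16.5%, against 12.5% of all genes) and 320 fell (14.4%, against 13.2%) on chow, 272 rose (12.3%, against 10.1%) and 256 fell (11.5%, against 9.63%) on AMLN, 139 rose (6.27%, against 5.05%) and 174 fell (7.84%, against 5.97%) in DKO, and 43 differed (1.94%, against 1.04%). With only the lists that name no input, also added, of 1517 genes 214 rose (14.1%) and 219 fell (14.4%) on chow, 159 (10.5%) and 165 (10.9%) on AMLN, 81 (5.34%) and 83 (5.47%) in DKO, and 17 differed (1.12%). Either end of genes without a strand gave 44 that fell in DKO.

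Asking for 100 shared bases left 3249 sites, asking for a score above the list's median left 1823, and the lists that name no input gave 10049. The share within 1 kb of a start was 19.7% for sites above the median score, 9.66% for sites with no Control peak within 1 kb and 13.2% with either end of genes without a strand, and it was 8.96% at 500 bp and 15.6% at 5 kb. The share with an HA peak was 5.81% above the median score, 3.21% for 100 shared bases, and 2.87% and 2.67% with the LiFKO+1c or Control+1c HA list alone. The promoter E-box share was 14.6% to 16.6% under its alternatives. Of 64 called fold changes of named genes none turned sign in 758 refits, and 15 lost their call in at least 1. Pooled lists without replicates limit the sites to calls, and the unknown depth limits what an uncalled gene shows.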
